A study of Drosophila melanogaster with 3 samples.

Results

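The gene cwo encodes clockwork orange, a basic helix-loop-helix repressor of the Orange family that acts in the circadian clock of Drosophila melanogaster, and here the binding of the protein to its own gene was examined. The gene (FBgn0259938) lies on the plus strand at chr3R:10388258-10400752 of dm6. The members are the bound summits inside the gene body or within 5000 bp of either end, a window of 22495 bp at chr3R:10383258-10405752. The window held 12 summits of the optimal list, the set of regions that passed the authors' irreproducible discovery rate (IDR) procedure, or 0.163% of that list.

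Chromatin immunoprecipitation and sequencing were done on whole embryos, both sexes pooled, with an age of 6 to 24 h by the source name. The separate age field of the labels holds a number of hours that cannot be an embryo's age and was not used. They came from a transgenic line, strain cwo-GFP, that stably carries cwo with GFP at its C-terminus, and the labels call it an insertion that targets cwo. An antibody against GFP was used, so only the tagged protein was followed. The 3 samples are biological replicates of this single group, and the labels name a control but no second condition. Whole embryos hold many cell types, and binding in few cells and weak binding in many cannot be told apart. The labels do not say whether the line also carries further copies of the cwo locus, and the part of such copies in the signal was not tested.

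In the fly clock, the activators Clk and cyc bind E-boxes, sites with the core CACGTG, and switch on per, tim, vri, Pdp1 and cwo. The per and tim proteins then inhibit Clk and cyc, and vri and Pdp1 act in a linked loop on Clk. The cwo protein binds E-boxes of clock genes and represses their transcription, and its own gene has been known as one of its targets.

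The values below are the deposited signal of each region and its rank by signal, with rank 1 the strongest, because the scale of the signal is not given and differs between lists. The replicate lists and the pooled list hold 30000 regions each, background included, and all optimal regions were found in the pooled list. Read depth is unknown from these lists. A summit was given a rank in a replicate when that replicate had a summit within 100 bp.

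Before the values, the DNA under 6 of the summits is shown, because the sites in it differ from summit to summit. Sequences are from the plus strand of dm6, 60 bp to either side of the summit, except for the 5′ UTR summit, where a shorter stretch is shown. Capitals mark CACGTG and, at some summits, the related sites CACGTT (read as AACGTG on the other strand), CACGCG and GACGTG. The 6 are not the strongest 6, and each holds a marked site, which not every summit of the locus does. The summits at chr3R:10387148 (rank 129), chr3R:10395617 (rank 686) and chr3R:10395817 (rank 1883), not shown, had none of these 4 sites within 100 bp.
Upstream summit, chr3R:10384614-10384734: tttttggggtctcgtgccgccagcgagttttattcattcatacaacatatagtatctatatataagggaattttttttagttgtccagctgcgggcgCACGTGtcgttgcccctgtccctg
Summit in the 5′ UTR, chr3R:10388308-10388336: tcggtgcgggtGACGTGacagtgcaaaaa
Intron summit, chr3R:10390045-10390165: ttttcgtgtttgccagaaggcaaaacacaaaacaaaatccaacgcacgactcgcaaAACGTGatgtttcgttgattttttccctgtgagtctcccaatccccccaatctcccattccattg
Intron summit, chr3R:10391036-10391156: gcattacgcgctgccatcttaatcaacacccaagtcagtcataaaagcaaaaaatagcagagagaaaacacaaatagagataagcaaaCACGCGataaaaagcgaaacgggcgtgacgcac
Intron summit, chr3R:10393091-10393211: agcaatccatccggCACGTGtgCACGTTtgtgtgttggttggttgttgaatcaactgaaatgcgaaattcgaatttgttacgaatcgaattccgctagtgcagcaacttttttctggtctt
Strongest intron summit, chr3R:10394391-10394511: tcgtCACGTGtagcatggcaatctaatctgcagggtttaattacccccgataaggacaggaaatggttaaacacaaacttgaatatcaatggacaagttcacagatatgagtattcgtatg

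The 12 summits were spread from 3584 bp upstream of the transcription start site (TSS) to 7559 bp downstream of it. The annotation gives cwo 3 transcripts, cwo-RA, cwo-RB and cwo-RC, and all start at the same base, chr3R:10388258, so there is no alternative TSS to which summits could be assigned. Of the summits, 2 lay upstream, 1 in the first exon and 9 in the first intron, which runs at least from chr3R:10389438 to chr3R:10396236 in every transcript. None lay in a later exon or intron or downstream of the gene. The transcripts differ in the start codon, which lies 1121 bp from the TSS in the first exon of cwo-RA and 9153 bp from it in cwo-RB and cwo-RC. All summits of the gene body other than that in the first exon therefore lay between these 2 start codons, and the first-exon summit lay in the 5′ UTR of all 3 transcripts.

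**Figure D1:**
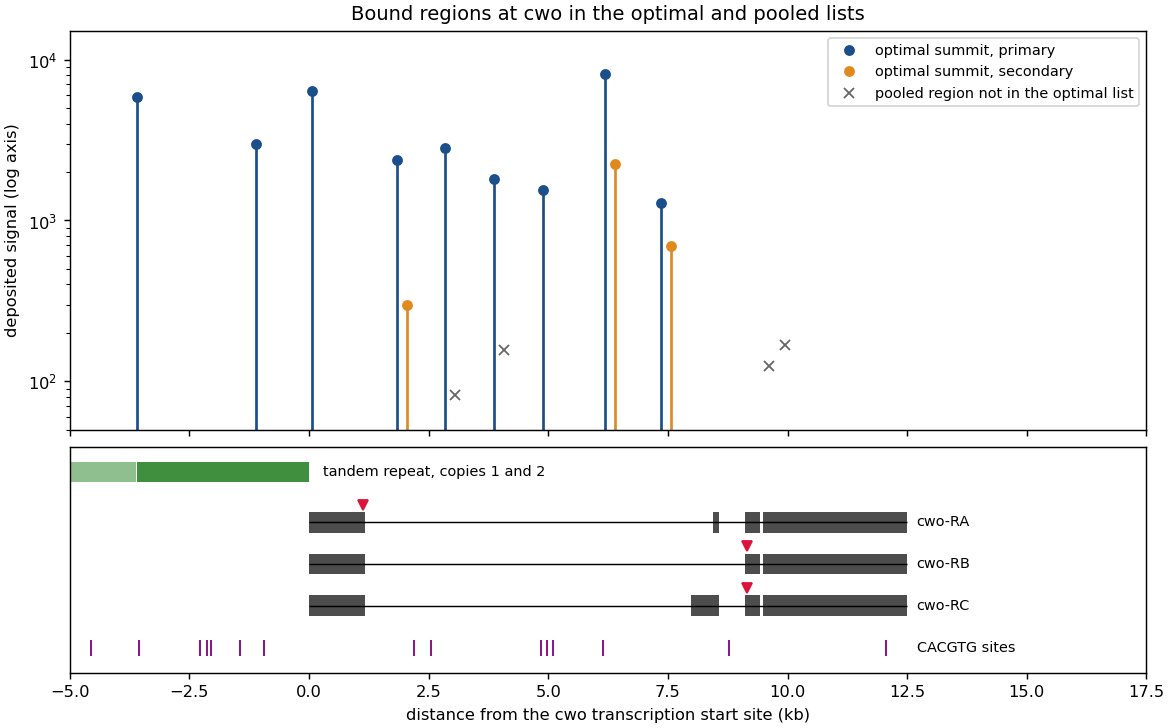
Deposited signal of bound regions (log axis) against distance from the cwo TSS in kb, over the gene and 5000 bp either side, with the 3 transcripts (exons as boxes, start codons as red triangles), the tandem repeat and the 15 CACGTG sites drawn below. The 12 optimal summits, secondary ones in orange, end at 7559 bp, and only weaker pooled regions (crosses) lie past them.

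The last optimal summit lay 4935 bp before the end of the gene and 9935 bp before the end of the window. Past it the pooled list had 2 regions, both in the last exon of all 3 transcripts, and the better of them ranked 11596 of 30000. In the replicates the best rank past the last summit was 24815, 14315 and 8303. The genes mthl11, a member of the methuselah-like receptor family, and CG6325, which overlap the downstream flank, held no optimal summit in their bodies. Summits that passed the IDR procedure were thus found upstream and in the 5′ portion of the gene, and none in the rest of the window.

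Of the 12 summits, 3 were among the strongest 50 of the optimal list (0.679% of all optimal summits) and 10 among the strongest 737 (10% of all). Each replicate also placed 3 of its own summits in the window among its strongest 50 and 10 among its strongest 737. The other members were the weakest, at ranks 1883 and 5881.

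The strongest summit, at chr3R:10394451 in the first intron, ranked 15 in the optimal list with a signal of 8129. It ranked 28, 13 and 9 in replicates 1, 2 and 3, with signals of 1351, 2519 and 4329. It was the first of the locus in replicates 2 and 3 and the third in replicate 1. The 5′ UTR summit at chr3R:10388322, 64 bp from the TSS, ranked 24 with a signal of 6356. Its replicate ranks were 19, 28 and 23, and it was the strongest of the locus in replicate 1. The upstream summit at chr3R:10384674, 3584 bp before the TSS, ranked 28 with a signal of 5839, and held ranks of 26, 27 and 26. The order of these leading summits thus differed between replicates, and their ranks overlapped.

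Because signal has its own scale in each list, the summits were compared as a ratio within each replicate. The strongest intron summit stood to the 5′ UTR summit at log2 ratios of -0.20, 0.53 and 0.48, a mean of 0.27 ± 0.41 (SD, n = 3). Leaving out replicate 1, the single one below 0, gave 0.51, and leaving out replicate 2 or 3 gave 0.14 or 0.16. The exact sign-flip permutation test over the 3 replicates gave p = 0.5 (two-sided), and the smallest p that it can give is 0.25. The upstream summit stood at -0.18, 0.03 and -0.10, a mean of -0.08 ± 0.10 (SD, n = 3; exact sign-flip permutation test, p = 0.5). For both, the replicates fell on either side of equal signal, and the data do not order these summits. The other 9 summits were below the 5′ UTR summit in every replicate that held them, with mean log2 ratios from -1.0 to -4.18. The sign-flip test could not pass 0.05 for any of them.

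**Figure D2:**
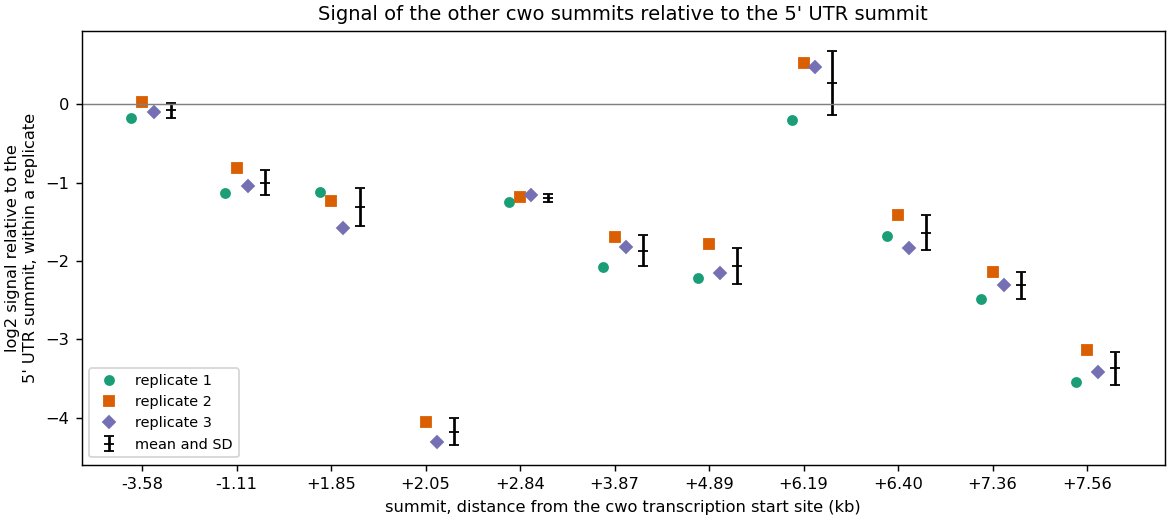
Signal of the other 11 summits relative to the 5′ UTR summit as log2 ratios within each replicate (points), with the mean and SD over replicates (black), ordered by distance from the TSS. The summit at +6.19 kb has replicates on either side of 0, from -0.20 to 0.53, and 9 summits lie below 0 throughout.

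Behind the leaders came a row of intron summits. The summit at chr3R:10390105, 1847 bp past the TSS, ranked 209, with replicate ranks of 119, 193 and 269. The summit at chr3R:10391096 ranked 150, with 144, 182 and 147. The summits at chr3R:10392131 and chr3R:10393151 ranked 369 and 487, with means of 400.3 ± 31.8 and 514 ± 75.0 over the replicates (SD, n = 3). That at chr3R:10395617 ranked 686, with a mean of 696 ± 41.3 (SD, n = 3). Neighbouring summits that were the strongest within 400 bp lay 991 to 2474 bp apart, with a median of 1170 bp.

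The other 3 summits of the intron were secondary, defined as lying within 400 bp of a stronger optimal summit. They followed the summits at chr3R:10390105, chr3R:10394451 and chr3R:10395617 at gaps of 200 to 205 bp, each at the higher coordinate. Secondary summits made up 11.4% of the optimal list. The secondary summit at chr3R:10394656 ranked 239 and that at chr3R:10395817 ranked 1883. The third, at chr3R:10390305, ranked 5881 and had no summit of its own within 100 bp in replicate 1. Without the secondary summits, 9 remained.

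The strongest regions of each replicate, as many as the optimal list holds, were taken next. All 12 summits lay inside such a region in every replicate, against 71.9% of all optimal summits. The optimal list was made from these replicates, so this overlap is a description. The 71.9% covers optimal summits of all ranks, whereas 10 of the 12 are among the strongest 737. The rule asks only that a summit lie inside a region. The summit at chr3R:10390305 thus counted in replicate 1 without a summit of its own there. With the requirement of a replicate summit within 100 bp, 11 of the 12 were held by all 3. The share of all optimal summits was not computed for this second rule. By summed signal of the matched summits, the first intron held 54.3%, 58.7% and 57.8% of the locus in replicates 1, 2 and 3 (56.9% ± 2.37, SD, n = 3). The 2 upstream summits held 25.4% ± 0.735 and the 5′ UTR summit 17.6% ± 1.81 (SD, n = 3). The shares of these portions did not overlap between portions in any pair of replicates. They are sums over 9 summits in the intron, 2 upstream and 1 in the 5′ UTR, so they do not compare single summits. Both upstream summits lie in the repeat described below.

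**Figure D3:**
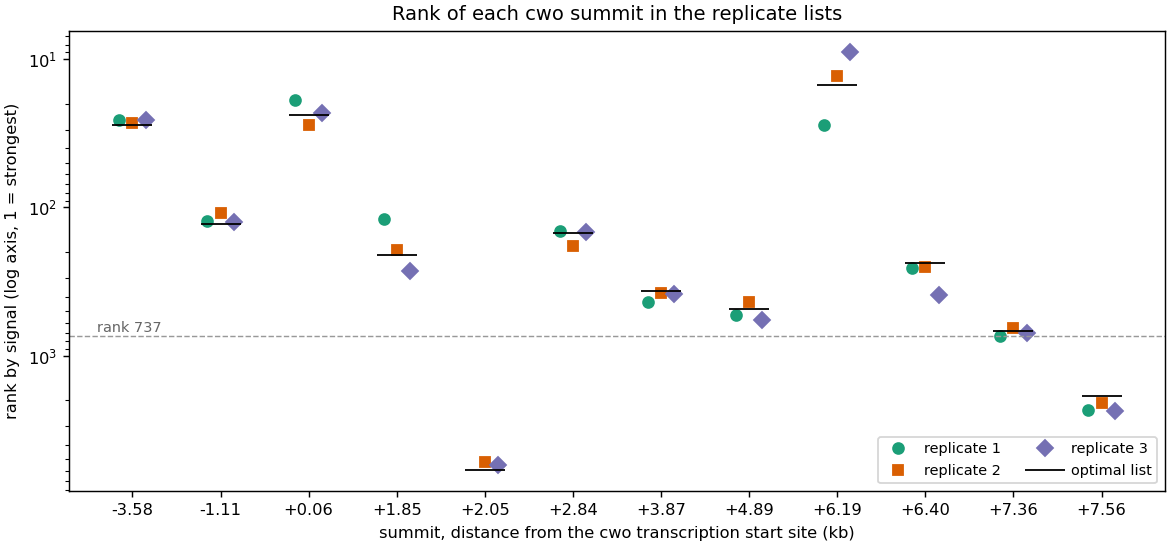
Rank of each of the 12 cwo summits in replicates 1 to 3 (points) and in the optimal list (bars), on a log axis with the strongest at the top, ordered by distance from the TSS in kb. In every replicate 10 summits lie above the dashed line at rank 737, and the summit at +2.05 kb has no point for replicate 1.

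The E-box CACGTG lay within 100 bp of 3 of the 12 summits, against 13.5% of all optimal summits. These were the upstream summit (site 40 bp away), the intron summit at chr3R:10393151 (sites 43 and 90 bp away) and the strongest intron summit (53 bp away). Without the summits in the repeat described below, 2 of 10 had it, and within 50 bp 2 of the 12. The share of all optimal summits with CACGTG was taken within 100 bp only, so the count within 50 bp has none beside it. The 5′ UTR summit, of rank 24, had none. At that summit GACGTG was centred on the summit itself, and at chr3R:10390105 AACGTG was centred 1 bp from it. GACGTG was looked for after the sequences had been seen. Within 100 bp it was found at 2 of the 12 summits, against 3.38% of all optimal summits. The other of the 2 was the upstream summit, 88 bp away. The core ACGTG was added at the same time. It is part of each of these sites and lay within 100 bp of 8 of the 12 summits, against 28.7% of all. Within 10 bp it was present at 2 of the 12, against 4.44% of all.

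Other listed sites were searched within 100 bp on both strands. CACGTT, which shares this core, was found at 5 of the 12 summits, against 10.5% of all optimal summits. CACGAG was found at 3, against 6.45%. Of the other E-box forms, CACATG was found at 2 of the 12, against 10.6% of all. The form CAGCTG was found at 1, against 8.92%, and the form CAGGTG at 0, against 6.38%. CACGCG, a site that repressors of the Hairy and Enhancer of split kind bind, was found at 1, the summit at chr3R:10391096, against 8.0%. GAGAGA, the repeat bound by GAGA factor, was found at 5 (12.5% of all). TGATAA, which holds a GATA core, was found at 2 (20.8% of all). TTATGTAA, the kind of box that vri and Pdp1 bind, was found at 0, against 1.82% of all. The summits of 1 locus share their sequence surroundings and are not independent, so these counts were not tested.

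CACGTG sites were frequent over the whole window. It held 15 of them, or 6.67 per 10 kb, against 1.23 per 10 kb over the chromosome arms. Of the 15, 4 lay within 100 bp of an optimal summit (26.7%, against 6.29% of the 16428 sites on the arms), and 8 lay inside an optimal region (53.3%, against 8.02%). Optimal regions are dense in this window, so any position in it is likelier to lie in one than a position on the arms. The portion of the window that they cover was not computed, so these shares show no preference for the sites. Sites in both copies of the repeat described below count separately. Many sites in the window were not at a summit. The site at chr3R:10397043-10397048, in an intron 1229 bp from the nearest summit, and the site at chr3R:10400322-10400327, in the last exon and 4508 bp away, lay in no optimal region.

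The sequence upstream of cwo is a tandem repeat, and this bears on its upstream summits. The stretch chr3R:10381052-10384654 (3603 bp) and the stretch chr3R:10384657-10388264 (3608 bp), which ends 6 bp past the TSS, aligned with 99.7% identity, 5 mismatches and 2 gaps. Reads from identical stretches cannot be assigned to a copy. The texts deposited with the libraries list coverage tracks of unique reads. The length of the reads, and the treatment of repeated ones when regions were called, were not given in the sources used here. Of the 36-base words that start in the second copy 6.15% were unique in the genome, and of 100-base words 16.3%. From the end of the repeat to the end of the window 100% were unique at both lengths. The first intron, with its 9 summits, is therefore free of this limit.

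Both upstream summits lay in the second copy, at places where some words were unique. The summit at chr3R:10384674 lay 17 bp from the start of that copy, where it joins the first, and 21.9% of 36-base words starting within 100 bp of it were unique. The summit at chr3R:10387148 lay in an exon of lncRNA:CR44938. That gene is on the minus strand at chr3R:10385494-10387385, so its start is the end nearer cwo and it runs away from cwo. The summit ranked 129 with replicate ranks of 123, 110 and 126. It lay 5 bp from 1 of the 2 gaps between the copies, with 16.9% of such words unique. At its counterpart in the first copy, chr3R:10383538, the nearest pooled summit was 1136 bp away. The 5′ UTR summit lay 58 bp past the repeat, and 96% of 36-base words around it were unique. The part of the repeat in the position and height of these summits was not tested.

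**Figure D4:**
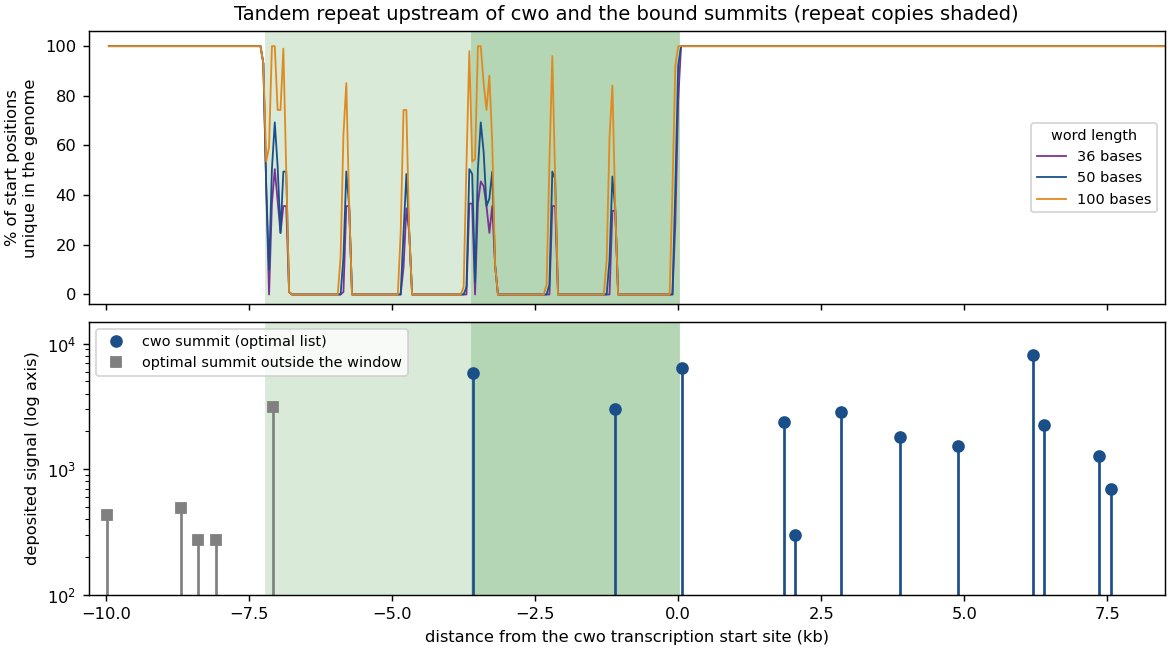
Upper panel, percent of word start positions within 50 bp that are unique in the genome, for words of 36, 50 and 100 bases, against distance from the cwo TSS in kb; lower panel, deposited signal (log axis) of optimal summits over the same stretch. The 2 copies of the repeat are shaded, and the optimal summits in them lie where uniqueness rises above 0.

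The first copy begins outside the window and has a summit of its own there. At chr3R:10381179, 2079 bp beyond the window, an optimal summit ranked 117, with replicate ranks of 159, 109 and 118. It lay 73 bp from the counterpart of the E-box at the upstream summit. A further E-box with the same surroundings in both copies, at chr3R:10383704-10383729 and chr3R:10387314-10387339, is tgtcacgtttCACGTGttttattgta. It lay 957 bp from the nearest optimal summit in the first copy and 179 bp in the second.

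Among protein-coding genes, cwo was among those with many summits and with strong ones. At least 1 optimal summit lay in the body or within 5000 bp of 54.3% of the 13945 protein-coding genes, and 0.337% had 12 or more. The median gene had 1. By number 34 genes had more than cwo, led by Eip75B with 34, tara with 25 and sbb with 23, in windows of 124, 44.7 and 89.1 kb. Per 10 kb of window cwo had 5.33 summits, and 43 genes had more. The highest was MFS14, a gene of the major facilitator family, with 8.36. Of summits in the strongest 737, cwo had 10, and no other protein-coding gene had as many. The next was MFS14 with 9, in a shorter window of 16753 bp against 22495 bp for cwo. These counts of strong summits were not taken per 10 kb, so they do not allow for the length of the window. The same order held in the lists of replicates 1, 2 and 3, with 10 in each for cwo and 8, 9 and 9 for MFS14. These 2 genes were also the ones with 3 of the strongest 50 summits, 0.0143% of protein-coding genes. With secondary summits counted, this lead of cwo depended on its upstream summits in the repeat. Without them cwo had 8 of the strongest 737, below MFS14 with 9 and level with ush, and 2 of the strongest 50 against 3 for MFS14. In the replicates cwo then had 8 in each, level with MFS14 in replicate 1 and below it in replicates 2 and 3. Without secondary summits instead, and with those in the repeat kept, cwo had 9 of the strongest 737 and the next genes 6.

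**Figure D5:**
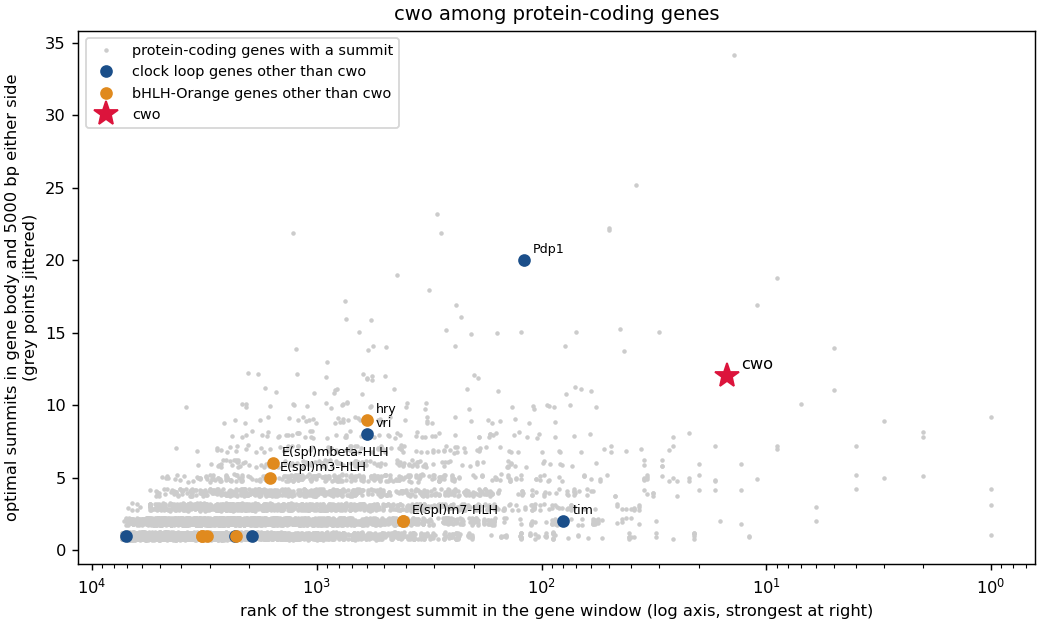
Number of optimal summits in the gene body and 5000 bp either side against the rank of the strongest of them (log axis, strongest at right) for protein-coding genes with at least 1 summit (grey), the clock loop genes (blue), the bHLH-Orange genes (orange) and cwo (star). With 12 summits and rank 15, cwo lies to the right of the other genes of both lists, and Pdp1, with 20, above it.

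The other clock genes were bound at fewer or weaker summits in windows cut the same way. Of the 7, 6 had an optimal summit, against 54.3% of all protein-coding genes, and 3 had one in the strongest 737, against 11.3%. Pdp1, an activator, had 20 summits in a window of 65.9 kb, or 3.03 per 10 kb, with a best rank of 120 and replicate ranks of 143, 125 and 113. The repressor tim had 2, with a best rank of 80 and replicate ranks of 84, 74 and 79. The repressor vri had 8 with a best rank of 598, and per, cyc and cry had 1 each, at ranks 2305, 1936 and 7090. Clk, an activator, had 0. The best replicate ranks of cwo, 19, 13 and 9, were ahead of those of every other clock gene in all 3 replicates.

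Within its own family cwo was also the most strongly bound of the genes listed. Of 10 other bHLH-Orange genes, repressors that include hairy and the Enhancer of split factors downstream of Notch, 9 had an optimal summit (54.3% of all genes) and 3 had one in the strongest 737 (11.3% of all genes). These genes are not separate counts. For example, E(spl)m7-HLH and E(spl)m8-HLH shared the summit that put both among the 3. E(spl)mgamma-HLH and E(spl)mdelta-HLH shared their single summit, of rank 3234. Together the listed genes other than cwo held 23 separate regions, fewer than their counts add up to. The hairy gene hry had 9 summits, or 6.67 per 10 kb against 5.33 for cwo, but its best rank was 600, with replicate ranks of 621, 530 and 1307. The summit shared by E(spl)m7-HLH and E(spl)m8-HLH had rank 414, the best of the list after cwo. E(spl)mbeta-HLH had 6 summits and E(spl)m3-HLH had 5. The neural stem cell factor dpn had 0.

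The genes whose leading summits were most like those of cwo were found by the mean absolute difference of log2 rank. It was taken over the best 3 optimal summits in each of the 3 replicates, in 1932 genes that had them. MFS14 came first at 0.75, with 14 summits, a best rank of 5 and replicate 1 ranks of 4, 18 and 21 against 19, 26 and 28 for cwo. CG15096, whose window overlaps that of MFS14, followed at 1.5, tara at 1.92, and cbt and ush at 2.13 each. The windows of cbt and ush hold the same leading summits, with replicate 1 ranks of 12, 210 and 295 for both. Only MFS14 was thus within a mean of 1 log2 unit of cwo. The upstream summit in the repeat is among the 3 of cwo used here.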

How the data were processed

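Lists of enriched regions on dm6 were used, 1 per replicate, 1 pooled and 1 optimal. Per the texts deposited with the libraries, replicate regions were called against 1 control alignment, pooled regions came from the alignments of all 3 replicates, and the optimal list keeps the 7366 that passed the IDR procedure. The signal is a score per region, as deposited by the authors. The caller, the aligner, tool versions and the cut-off of the IDR procedure were not given in the sources used here. Summit positions are the deposited region start plus the deposited summit offset, written 1-based. The dm3 lists were not used here, since no dm3 annotation was at hand. Depth is unknown, and no interval was computed.

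Genes came from Ensembl release 115 and sequence from the RefSeq copy of the same assembly. Repeats were found with BLAST+ 2.17.0 and aligned with Biopython 1.88, and counts were made with Python 3.11.15, pandas 2.3.3 and numpy 2.4.6. Word uniqueness was counted over the whole assembly, both strands, for 36, 50 and 100 bases. Counting functions were tested on simulated data. Named genes are cwo, genes overlapping its window, the clock loop and bHLH-Orange lists, the 5 genes most like cwo and the leading genes with more summits. The members, lists and sites were chosen with earlier results of these data known, and the repeat, GACGTG and ACGTG were examined after the data were seen.

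Alternatives were other flanks and half-windows, the strongest 3683 regions, omission of secondary summits or of summits in the repeat, other definitions of a held summit and the omission of each replicate, done by keeping optimal summits inside a strongest-7366 region of both others. The optimal list still came from all 3.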

Additional observations from a re-analysis of the deposited data

How the results depend on the processing

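The number of cwo summits was 9 to 17 over the alternatives, and 11 or 12 were held by all 3 replicates. Leaving out a replicate could not lower these counts or those with CACGTG, since all 12 summits were held by every replicate, and the rank of 15 comes from 1 list throughout, so neither shows stability. The log2 ratio of the strongest intron to the 5′ UTR summit was 0.35 in the pooled and optimal lists and 0.14 to 0.51 without 1 replicate. The number of genes with more summits than cwo, 34 as reported, was 16 with a flank of 10000 bp, 9 when the optimal list was cut at its median signal, 54 without secondary summits, 61 without the summits in the repeat and 19 to 20 without 1 replicate. Genes with at least as many of the strongest 737 summits, 0 as reported, were 2 without the repeat. For the strongest 50 they were 1 as reported, 6 without the repeat and 0 without secondary summits. These settings for the strongest summits, and all without the repeat, were chosen after seeing the data. The cause was not tested. Summits with CACGTG, 3 as reported, numbered 5 with a flank of 10000 bp and within 200 bp. They numbered 2 in the gene body alone, with a flank of 1000 bp, within 50 bp and without the repeat. The shares of all optimal summits within 50 and 200 bp were not computed. No analysis paired between groups was possible because there is 1 group. Ratios within a replicate pair summits of the same list and compare summits only. Depth is unknown, so a region absent from a list may have been missed. The sign-flip test over 3 replicates cannot pass 0.05.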

Other observations

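Beyond the window, optimal summits continued on either side. Upstream of the summit in the first copy of the repeat, those at chr3R:10379568, chr3R:10379862 and chr3R:10380186 ranked 3064, 6598 and 6573, and that at chr3R:10378274 ranked 3603. The summit at chr3R:10379862 had a counterpart within 100 bp in replicate 3 and in no other replicate. Downstream, the nearest lay 6233 bp outside the window at chr3R:10411985, with rank 661 and replicate ranks of 615, 1416 and 468.

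Of the 7 CACGTG sites in the window upstream of the TSS, 6 lie in the second copy of the repeat, and the one at the summit of chr3R:10384674 is the only one of these within 100 bp of an optimal summit. The sites at chr3R:10385977-10385982, chr3R:10386120-10386125 and chr3R:10386206-10386211 lay 1168, 1025 and 939 bp from the nearest. Of 36-base words starting in the second copy 6.15% were unique, and the part of the repeat in the absence of summits at these sites was not tested. Base composition varied along the locus, from 33.3% to 53.2% GC within 100 bp of the summits, against a median of 38.8% over all optimal summits.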
